A study of Mus musculus with 8 samples.

Results

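The proteasome genes of the mouse were taken as the protein-coding genes whose symbol begins with Psm, a letter from a to g and a number. This rule, which uses no measured value, found 50 of the 54532 genes listed, of which 22046 are protein coding. By their known roles they comprised 7 alpha and 7 beta subunits of the constitutive core, 3 immunoproteasome subunits, 2 core subunits of other tissues (Psma8 and Psmb11), 6 ATPases and 11 non-ATPase subunits of the regulatory particle, 5 activator genes, 1 inhibitor (Psmf1), and 3 regulatory particle chaperones and 4 core chaperones, which help to assemble the complex. The remaining gene, Psmc3ip, carries the name of an ATPase that its product binds, but it encodes a factor of meiotic recombination and is no subunit.

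Liver tissue of 4 METTL3-HKD and 4 METTL3-Flox mice was compared by RNA sequencing, in each case following partial warm ischemia for 1 h and reperfusion for 6 h (I/R). Only the left and middle portal branches were clamped, and the lobe sampled is not named in the paper. METTL3 is a methyltransferase that places N6-methyladenosine on RNA, and the comparison asks how liver RNA differs when hepatocytes have less of it. METTL3-HKD mice carry a floxed Mettl3 allele, written flox/-, together with an improved Cre driven by the albumin promoter (Alb-iCre), which acts in hepatocytes, whereas METTL3-Flox mice from the same litters are flox/flox and are listed without Cre. The floxed exon is exon 4, the background is C57BL/6, and the age at surgery is not given in the sources used here. The effect of Cre itself and that of reduced METTL3 cannot be told apart, and no sham-operated or uninjured liver was analysed here, so that no value describes the response to I/R as such. Nothing in the labels says how the 8 livers were spread over surgery or library batches. Levels are in FPKM, that is, fragments scaled to gene length and to library size. The files gave 15861245 to 18434488 reads on genes per library. The FPKM of Mettl3 was 1.56, 1.39, 1.17 and 1.20 in METTL3-HKD livers 1 to 4 and 1.84, 1.16, 1.45 and 1.54 in METTL3-Flox livers 1 to 4, so that the groups overlapped (log2 fold change -0.16, standard error 0.165, adjusted p = 0.556). The value covers all exons and all cell types of the liver, and does not isolate exon 4. Log2 fold changes are METTL3-HKD over METTL3-Flox on the scale of log2(FPKM + 0.1), with adjusted p from limma over the 16645 genes tested, and a gene was called where this was under 0.05.

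The proteasome is the protease that degrades proteins marked with ubiquitin. Its barrel-shaped core has rings of alpha subunits outside and of beta subunits inside, and the beta subunits Psmb5, Psmb6 and Psmb7 carry the active sites. In immune cells, and in other cells exposed to interferon, these are replaced by Psmb8, Psmb9 and Psmb10, which makes the immunoproteasome and changes the peptides offered on MHC class I. A regulatory particle with a ring of ATPases (Psmc genes) and non-ATPase subunits (Psmd genes) binds the ends of the core, recognises ubiquitin and unfolds the substrate. Alternative caps, the activators, include the interferon-inducible ring of Psme1 and Psme2, the mostly nuclear ring of Psme3 and the large single-chain activator Psme4. Constitutive subunits are raised together by the transcription factor NFE2L1, also called NRF1, when proteasome activity is short.

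Promoter sequences are shown for the 5 proteasome genes called between the groups, since 4 of them were lower and 1 was higher in METTL3-HKD livers. Each window holds the 300 bases from 250 before to 50 after a transcription start of RefSeq on GRCm38.p6, written 5′ to 3′ on the strand of the gene, and capitals mark matches to the motifs searched.
Psmb8 (chr17:34197945-34198244, plus strand): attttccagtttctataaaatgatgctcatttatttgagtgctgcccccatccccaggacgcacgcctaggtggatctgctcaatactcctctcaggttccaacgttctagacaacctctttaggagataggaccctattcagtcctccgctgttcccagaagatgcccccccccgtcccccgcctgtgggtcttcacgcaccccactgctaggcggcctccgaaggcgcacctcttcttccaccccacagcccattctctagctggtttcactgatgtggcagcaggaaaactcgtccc
Psmb9 (chr17:34187281-34187580, minus strand): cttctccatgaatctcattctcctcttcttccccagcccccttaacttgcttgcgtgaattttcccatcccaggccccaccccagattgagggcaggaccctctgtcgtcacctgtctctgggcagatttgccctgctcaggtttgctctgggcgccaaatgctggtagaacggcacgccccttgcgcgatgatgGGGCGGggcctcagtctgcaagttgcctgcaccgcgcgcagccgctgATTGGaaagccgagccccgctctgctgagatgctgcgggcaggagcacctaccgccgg
Psmb10 (chr8:105938343-105938642, minus strand): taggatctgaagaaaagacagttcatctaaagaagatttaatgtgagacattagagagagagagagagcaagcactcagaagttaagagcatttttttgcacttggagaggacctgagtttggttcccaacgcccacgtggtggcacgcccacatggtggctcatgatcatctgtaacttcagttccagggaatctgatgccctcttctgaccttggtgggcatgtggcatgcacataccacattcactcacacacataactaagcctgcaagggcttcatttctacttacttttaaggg
Psme1 (chr14:55578244-55578543, plus strand): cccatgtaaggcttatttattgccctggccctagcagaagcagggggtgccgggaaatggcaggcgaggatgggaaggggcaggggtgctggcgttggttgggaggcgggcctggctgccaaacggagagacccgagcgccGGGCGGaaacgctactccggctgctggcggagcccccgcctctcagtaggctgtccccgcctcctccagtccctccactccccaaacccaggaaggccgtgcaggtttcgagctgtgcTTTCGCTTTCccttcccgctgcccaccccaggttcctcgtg
Psme3 (chr11:101315963-101316262, plus strand): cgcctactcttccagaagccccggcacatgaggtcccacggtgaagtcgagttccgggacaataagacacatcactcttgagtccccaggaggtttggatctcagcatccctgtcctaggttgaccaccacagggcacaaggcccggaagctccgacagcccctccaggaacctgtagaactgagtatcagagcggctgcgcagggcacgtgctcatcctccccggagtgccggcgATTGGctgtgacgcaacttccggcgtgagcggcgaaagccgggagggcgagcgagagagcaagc
These RefSeq starts lie 474, 434, 52, 371 and 0 bases inside the listed genes Psmb8, Psmb9, Psmb10, Psme1 and Psme3, in that order, so that other annotated starts of the first 4 genes lie outside or elsewhere in the windows.

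The motifs searched on both strands were the core of the interferon-stimulated response element (ISRE), TGANTCAGC and TGACNNNGC, cores of the antioxidant response element, CCAAT, the NF-Y box, and GGGCGG, the GC box. The Psme1 window held the ISRE core on the reverse strand, from 9 to 18 bases after the start, and GGGCGG at 109 bases before it. The Psmb9 window held GGGCGG at 55 and CCAAT, on the reverse strand, at 8 bases before the start, and the Psme3 window held CCAAT on the reverse strand at 14 bases before the start. No motif matched in the windows of Psmb8 and Psmb10, which says only that these letters are not in these 300 bases. Of the 42 proteasome genes with a window in the table (8 had none), 5 held the ISRE core, namely Psme1, Psmb3, Psmg4, Psmd4 and Psmd9, a share of 11.9% beside 3.99% of 27025 genes. GGGCGG was in 23 windows (54.8% beside 38.2%), CCAAT in 15 (35.7% beside 41.1%), TGACNNNGC in 6 (14.3% beside 14.0%) and TGANTCAGC in 1, that of Psmb5 (2.38% beside 1.37%). Of the 5 genes with the ISRE core, Psme1 was the only one called in the comparison of livers, where 15.7% of all tested genes were called. No link between motif and call was tested. A match describes letters, not binding.

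Of the 50 proteasome genes, 49 had a mean of at least 0.1 FPKM and were tested, and 5 of these (10.2%) were called, where 15.7% of all tested genes were. The 4 genes lower in METTL3-HKD livers were the 3 immunoproteasome subunits and Psme1, or 8.16% of those tested beside 6.63% of all genes. The gene that was higher was Psme3, or 2.04% beside 9.05% of all genes. None passed the thresholds for differentially expressed genes, which add a log2 fold change of at least 1 (limma, 0 of 49 in either direction, also under voom on reads rebuilt from the FPKM), where 4.7% of all genes passed as higher, 1.52% as lower and 6.22% in either direction. At an unadjusted p under 0.05, 9 of the 49 (18.4%) passed beside 31.9% of all genes. The groups did not overlap for 2 genes with METTL3-HKD above and 5 with METTL3-HKD below, where this held for 12.7% and 9.95% of all genes. The median log2 fold change was 0.014, beside -0.0028 over all genes, and the median size of the change was 0.14, beside 0.30. The shares of calls were not tested against those of all genes, and the calls themselves were in the immunoproteasome and activator genes.

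**Figure D1:**
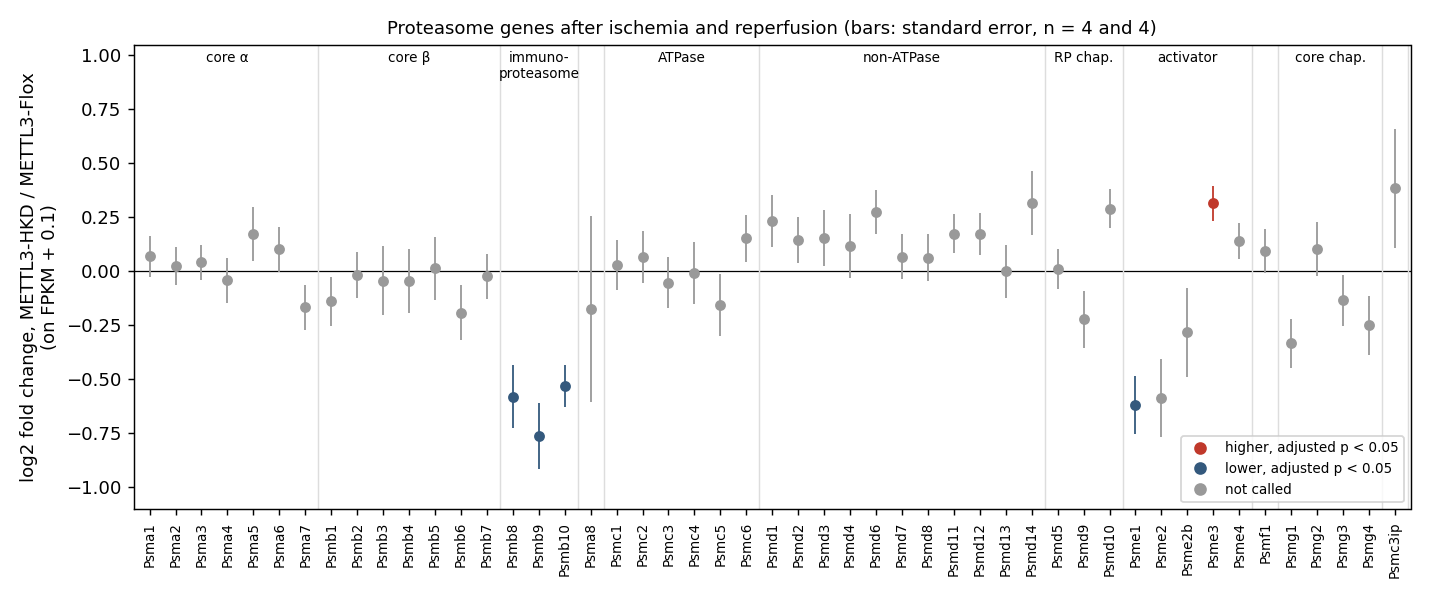
Log2 fold change of FPKM + 0.1, METTL3-HKD over METTL3-Flox, for the 49 tested proteasome genes in the order of their roles (RP, regulatory particle; chap., chaperone), with bars for the standard error (n = 4 livers in each group). Psmb8, Psmb9, Psmb10 and Psme1 lie between -0.76 and -0.53 and Psme3 at 0.32, while the 31 constitutive core and regulatory subunits lie between -0.19 and 0.32, and under scaling to the reads on genes all 31 are above 0.

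All 3 immunoproteasome subunits were lower in METTL3-HKD livers, and in each the groups did not overlap. Psmb8, which takes the place of Psmb5, is listed as ENSMUSG00000024338 on the plus strand of chromosome 17 of GRCm38 from 34197721 to 34201454. Its FPKM was 7.38, 8.50, 5.91 and 5.96 in METTL3-HKD livers 1 to 4 and 9.77, 8.91, 12.2 and 10.6 in METTL3-Flox livers 1 to 4. All 4 METTL3-HKD livers were below the lowest METTL3-Flox liver, and liver 2 was the nearest in both groups. The mean fell by 33.1%, from 10.4 ± 1.41 to 6.94 ± 1.25 FPKM (SD, n = 4 each; log2 fold change -0.58, standard error 0.147, adjusted p = 0.0312). It rested on at least 292 reads in every METTL3-HKD liver.

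Psmb9, which takes the place of Psmb6, is listed as ENSMUSG00000096727 on the minus strand of the same chromosome from 34181988 to 34187764, beside Tap1. Its FPKM was 2.73, 3.67, 2.44 and 2.44 in METTL3-HKD livers and 4.42, 5.29, 5.30 and 4.23 in METTL3-Flox livers. The highest METTL3-HKD value, in liver 2, was below the lowest METTL3-Flox value, in liver 4. The mean fell by 41.4%, from 4.81 ± 0.568 to 2.82 ± 0.582 FPKM (log2 fold change -0.76, standard error 0.152, adjusted p = 0.0147), the largest change among the 5 called proteasome genes. In the annotation, 212 exonic bases of Psmb9 (5.79% of its exonic length) are also exonic in Tap1 on the other strand, and the strand setting of the counts is not given in the sources used here, so that reads there cannot be assigned. Tap1, the peptide transporter subunit, was at -0.52 on the log2 scale (standard error 0.223, adjusted p = 0.149), and its own level was 5.20 ± 1.83 in METTL3-HKD and 7.18 ± 0.692 FPKM in METTL3-Flox livers.

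Psmb10, which takes the place of Psmb7, is listed as ENSMUSG00000031897 on the minus strand of chromosome 8 from 105935735 to 105938444. It was the most abundant of the 3, with 15.8, 18.8, 14.9 and 14.4 FPKM in METTL3-HKD livers and 22.99, 22.6, 23.8 and 22.7 FPKM in METTL3-Flox livers. The METTL3-Flox livers lay close together, and again METTL3-HKD liver 2 was the nearest to them. The mean fell by 30.6%, from 23.03 ± 0.570 to 16.0 ± 1.99 FPKM (log2 fold change -0.53, standard error 0.0974, adjusted p = 0.0111). For each of the 3 genes the exact permutation test over livers gave p = 0.0286, two-sided, the smallest that 4 against 4 livers allow, and such a p is reached by every gene whose groups do not overlap.

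The 3 calls kept their direction under each of 18 alternative settings. Psmb9 (adjusted p from 0.0102 to 0.0791) and Psmb10 (0.00757 to 0.149) stayed under the threshold in all but scaling to the reads on genes. Psmb8 (0.0183 to 0.219) also missed it without the mean-variance trend, with a replicate block (0.0903), and without METTL3-Flox liver 3 or 4 or METTL3-HKD liver 1, 3 or 4. The deposited FPKM had been scaled between libraries. When reads were scaled to their total on genes instead, all genes shifted to a median of 0.20 on the log2 scale, and the log2 fold changes of Psmb8, Psmb9 and Psmb10 were -0.37, -0.55 and -0.32 with none called, where 2.24% of all genes were called lower. Relative to that shift they were -0.56, -0.75 and -0.51.

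**Figure D2:**
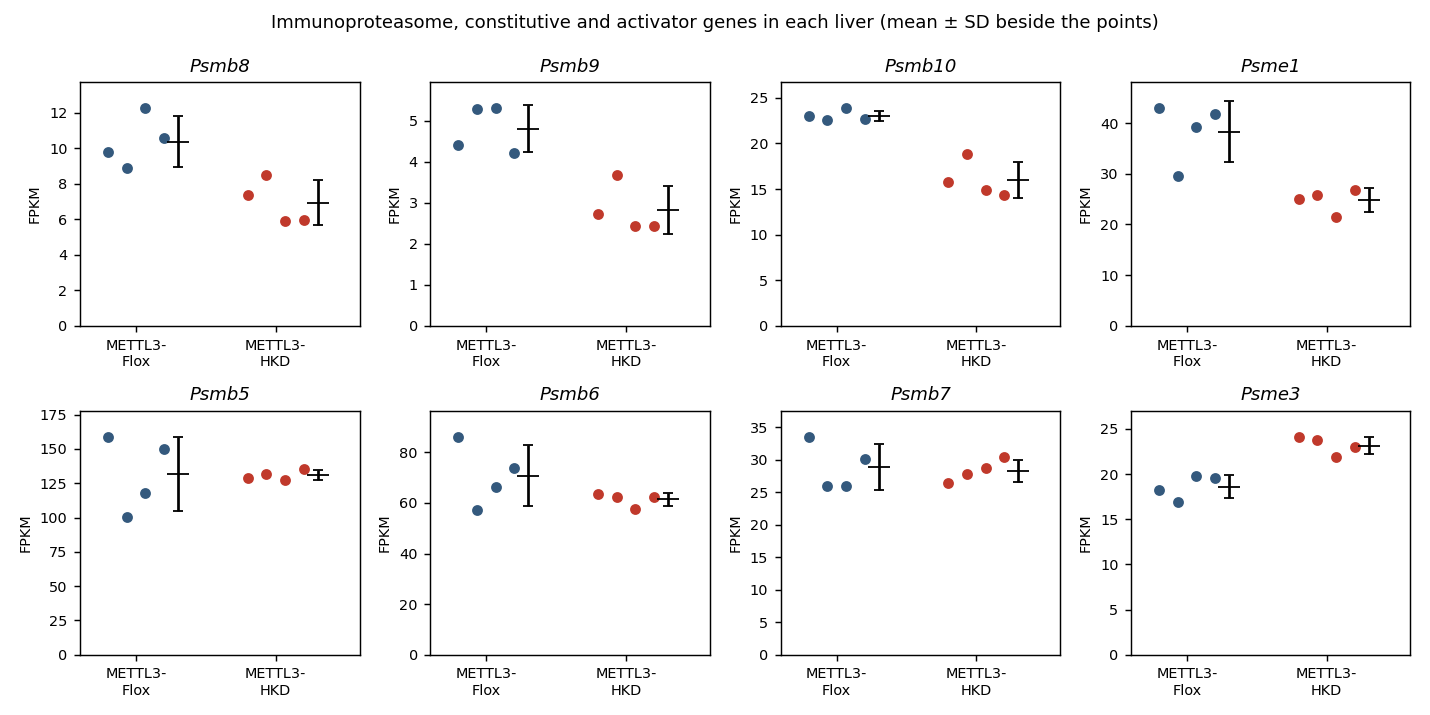
FPKM in each liver (points; METTL3-Flox blue, METTL3-HKD red; mean ± SD beside them, n = 4) of the immunoproteasome subunits Psmb8, Psmb9 and Psmb10, their constitutive counterparts Psmb5, Psmb6 and Psmb7 below them, and the activators Psme1 and Psme3; every axis starts at 0. All METTL3-HKD livers lie below all METTL3-Flox livers for the 3 immunoproteasome subunits and Psme1 and above them for Psme3, while the groups overlap for Psmb5, Psmb6 and Psmb7.

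The constitutive counterparts were not called. Psmb5, the most abundant of all the proteasome genes, reached 129, 132, 127 and 136 FPKM in METTL3-HKD livers and 159, 100.3, 118 and 150 FPKM in METTL3-Flox livers, and its log2 fold change was 0.014 (standard error 0.147, adjusted p = 0.965). Its METTL3-Flox values lay on both sides of all METTL3-HKD values. Psmb6 had 61.4 ± 2.64 in METTL3-HKD and 70.8 ± 12.2 FPKM in METTL3-Flox livers (-0.19, standard error 0.125, adjusted p = 0.328), and Psmb7 had 28.3 ± 1.68 and 28.9 ± 3.60 FPKM (-0.022, standard error 0.104, adjusted p = 0.910). Of the stretches of 50 exonic bases of Psmb5, 46.8% also occur in the pseudogene Gm3375, at a mean of 4.04 FPKM, so that part of its reads may be divided between the 2.

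Ratios of FPKM within a liver do not depend on how the libraries were scaled. Psmb10 stood at 59.7, 67.8, 52.1 and 47.2% of Psmb7 in METTL3-HKD livers and at 68.8, 86.8, 91.8 and 75.4% in METTL3-Flox livers. These groups did not overlap, though METTL3-HKD liver 2 and METTL3-Flox liver 1 were close. Psmb8 stood at 5.31 ± 0.962% of Psmb5 in METTL3-HKD and 8.11 ± 1.87% in METTL3-Flox livers, and Psmb9 at 4.59 ± 0.887% of Psmb6 and 7.04 ± 1.93%. In both of these ratios 3 of 4 METTL3-HKD livers were below the lowest METTL3-Flox liver, and METTL3-HKD liver 2 was above METTL3-Flox liver 1. The ratios are given as descriptions and were not tested.

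**Figure D3:**
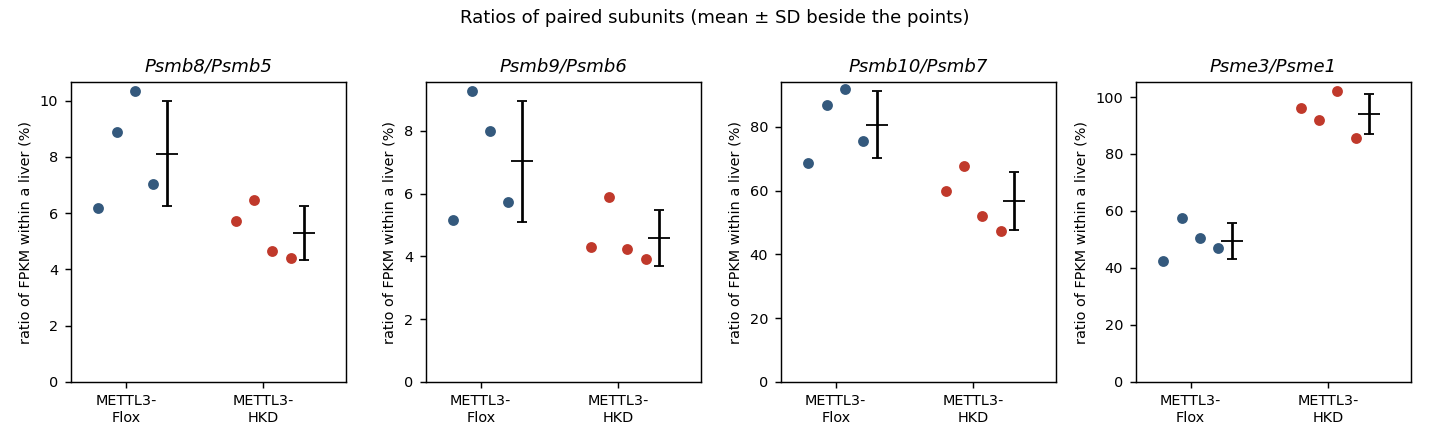
Ratio of FPKM within each liver, in percent, of Psmb8 to Psmb5, Psmb9 to Psmb6, Psmb10 to Psmb7 and Psme3 to Psme1 (points; mean ± SD beside them, n = 4 livers in each group); every axis starts at 0. The groups overlap for the first 2 ratios and do not overlap for Psmb10 to Psmb7, where METTL3-HKD livers are lower (56.7 ± 9.03% and 80.7 ± 10.5%), and for Psme3 to Psme1, where they are higher (94.0 ± 7.02% and 49.3 ± 6.29%). The last ratio was not planned and had to separate the groups, since Psme3 was higher and Psme1 lower, each without overlap.

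Immunoproteasome genes are high in blood cells, and markers of those cells moved between the groups. In unsorted liver tissue, fewer cells of a type and less RNA per cell cannot be told apart. The summed FPKM of the 3 immunoproteasome genes was 22.8 to 31.0 in METTL3-HKD and 36.8 to 41.4 in METTL3-Flox livers. Pan-leukocyte markers moved the other way, with 2 of 3 called higher (Ptprc, log2 fold change 1.17, adjusted p = 0.0411, and Coro1a, 1.94, adjusted p = 0.0134) and sums of 12.9 to 45.5 against 9.06 to 13.7 FPKM. Coro1a stayed called under all 18 alternatives and Ptprc lost its call under 11, and the third marker, Laptm5, was not called (0.18, adjusted p = 0.739). Neutrophil markers were higher in 8 of 9 tested (10 listed), with sums of 331 to 1618 against 14.3 to 46.97 FPKM. Of 8 macrophage markers, 3 were called lower (Clec4f, Cd5l and Vsig4, markers of Kupffer cells). Each of these 3 calls was lost under 5 to 10 of the alternatives. By sign, 6 of the 8 were below 0 and 2 above, and 1 passed as higher at an unadjusted p under 0.05. Under voom 1 was called higher and 3 lower. Under scaling to the reads on genes 1, Lyz2, was called higher and 0 lower. Sums over the 8 macrophage markers overlapped, from 155 to 344 in METTL3-HKD and from 221 to 430.5 FPKM in METTL3-Flox livers. None of 6 lymphocyte markers tested (10 listed) was called by limma, at an unadjusted p under 0.05 or under voom, and their sums were 0.761 to 5.67 and 1.06 to 2.07 FPKM. None of 6 endothelial markers was called either, by limma or under voom, and 1 was higher at an unadjusted p under 0.05. Of 8 hepatocyte markers 1 was called lower, Hnf4a (lost under 5 alternatives), with sums of 21585 to 31948 and 27913 to 31757 FPKM. By sign all 8 were below 0, at a median log2 fold change of -0.41. Under scaling to the reads on genes 6 of the 8 were below 0, at a median of -0.20. Of 5 stellate markers 1 was called lower, a call lost under scaling to the reads on genes. By sign the other 4 were above 0, and 1 passed as higher at an unadjusted p under 0.05. Biliary markers had 3 of 4 called higher. For all these lists, the shares over all tested genes were 9.05% called higher and 6.63% called lower. In no list was a marker at 0 in all livers. The part of these cell types in the immunoproteasome values was not tested.

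The genes of MHC class I antigen processing, to which the immunoproteasome supplies peptides, were lower by the sign of the change in 15 of 15 cases, or in 14 of 15 under scaling to the reads on genes. Among them 4 were called lower, where 6.63% of all genes were, and 0 higher (voom, 6 and 0), at a median log2 fold change of -0.44. All 4 calls were lost under scaling to the reads on genes, with the replicate block and without METTL3-Flox liver 3, and of the 18 alternatives the call was lost in 3 for Calr, 7 for Tapbp, 10 for Irf1 and 11 for Pdia3. Those called were Calr (-0.60, adjusted p = 0.0178) and Pdia3 (-0.58, adjusted p = 0.0376), folding factors of the endoplasmic reticulum that also serve other proteins, Tapbp (-0.59, adjusted p = 0.0224), which tethers class I molecules to the peptide transporter, and Irf1 (-0.44, adjusted p = 0.0462), an interferon-responsive transcription factor. Tapbp had 19.1, 24.9, 17.3 and 16.9 FPKM in METTL3-HKD and 26.4, 29.1, 32.5 and 28.6 FPKM in METTL3-Flox livers, with no overlap. Irf1 had 6.78, 8.45, 7.27 and 6.55 FPKM against 7.98, 10.6, 10.6 and 10.4 FPKM, and METTL3-HKD liver 2 was above METTL3-Flox liver 1. The class I regulator Nlrc5 (-0.28, adjusted p = 0.275) and the light chain B2m (-0.32, adjusted p = 0.203) were not called.

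Activator genes moved in both directions. Psme1, which encodes the alpha chain of the interferon-inducible ring, is listed as ENSMUSG00000022216 on the plus strand of chromosome 14 from 55578123 to 55581529. It had 25.0, 25.8, 21.4 and 26.9 FPKM in METTL3-HKD livers and 42.9, 29.5, 39.1 and 41.7 FPKM in METTL3-Flox livers. The groups did not overlap, and METTL3-Flox liver 2 stood apart from the other 3 of its group. The mean fell by 35.3%, from 38.3 ± 6.07 to 24.8 ± 2.37 FPKM (log2 fold change -0.62, standard error 0.134, adjusted p = 0.0190; 0.0122 to 0.0997 under the alternatives). The call was lost without METTL3-Flox liver 3 (adjusted p = 0.0573) or 4 (0.0519) and under scaling to the reads on genes (-0.40, adjusted p = 0.0997).

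Psme2, the beta chain of the same ring, is listed on the minus strand of chromosome 14 from 55587441 to 55591113, near Psme1. It had 14.7, 14.9999, 12.1 and 19.0 FPKM in METTL3-HKD livers and 31.0, 21.1, 21.3 and 18.6 FPKM in METTL3-Flox livers. The groups overlapped, since METTL3-HKD liver 4 was above METTL3-Flox liver 4. Its log2 fold change was -0.59 (standard error 0.181, adjusted p = 0.0577), close to that of Psme1 but past the threshold only with a minimum of 1 FPKM (adjusted p = 0.0473), among protein-coding genes alone (0.0445), under voom (0.0475) and without METTL3-HKD liver 4 (0.0451). Its copy Psme2b on chromosome 11, listed as protein coding, had 29.0, 30.9, 33.9 and 21.4 FPKM in METTL3-HKD and 31.3, 24.8, 41.1 and 44.5 FPKM in METTL3-Flox livers (-0.28, standard error 0.206, adjusted p = 0.383). Of the exonic stretches of 50 bases of Psme2b, 68.7% also occur in Psme2, which makes 28.3% of those of Psme2, so that the division of reads between the 2 genes is uncertain. In METTL3-HKD liver 4, Psme2 had the highest and Psme2b the lowest value of the group. The reads of both genes were therefore added, a step chosen after the values were seen. Together they made 50.3, 52.3, 49.7 and 51.4 reads per 1000000 of the effective library size in METTL3-HKD livers and 80.9, 58.1, 72.0 and 70.1 in METTL3-Flox livers. On this sum the groups did not overlap (50.9 ± 1.18 and 70.3 ± 9.41, exact permutation test, p = 0.0286, two-sided, n = 4 each, the smallest these livers allow). Of all tested genes, 22.6% were without overlap. The effective library size is that of the deposited scaling. Reads on genes were 0.857 to 0.992 of it in METTL3-HKD and 0.992 to 1.19 in METTL3-Flox livers. The lack of overlap is therefore shown for the deposited scaling only.

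Psme3, which forms the mostly nuclear activator ring, is listed as ENSMUSG00000078652 on the plus strand of chromosome 11 from 101316213 to 101323537, and was the proteasome gene called higher. It had 24.1, 23.7, 21.9 and 22.97 FPKM in METTL3-HKD livers and 18.2, 16.9, 19.7 and 19.6 FPKM in METTL3-Flox livers. All METTL3-HKD livers were above all METTL3-Flox livers, with means of 23.2 ± 0.975 and 18.6 ± 1.31 FPKM, a difference of 24.4% of the METTL3-Flox mean (log2 fold change 0.32, standard error 0.0821, adjusted p = 0.0346; 0.0237 to 0.101 under the alternatives). The call was lost when any liver other than METTL3-HKD liver 3 was left out, with a replicate block and without the mean-variance trend, and it was kept under scaling to the reads on genes (0.53, adjusted p = 0.0237). Within livers, Psme3 stood at 96.2, 92.1, 102 and 85.5% of Psme1 in METTL3-HKD and at 42.5, 57.4, 50.5 and 46.9% in METTL3-Flox livers. The transcripts of the 2 activators were thus at nearly equal FPKM in METTL3-HKD livers, whereas Psme3 was the lower in every METTL3-Flox liver. This ratio was not among those planned. Since Psme3 was higher and Psme1 lower, each without overlap, it had to separate the groups and adds nothing to the 2 calls. Psme4, the single-chain activator, had 19.4 ± 0.808 and 17.6 ± 1.32 FPKM (0.14, standard error 0.0832, adjusted p = 0.281), and the inhibitor Psmf1 reached 4.19 ± 0.374 and 3.91 ± 0.264 FPKM (0.095, adjusted p = 0.558).

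The constitutive core was not called in any of its 14 genes. The 7 alpha subunits had means of 24.0 to 97.9 FPKM over the 8 livers and log2 fold changes from -0.17 (Psma7, adjusted p = 0.296) to 0.17 (Psma5, adjusted p = 0.367), with 5 above and 2 below 0. The 7 beta subunits had means of 27.7 to 131 FPKM and log2 fold changes from -0.19 (Psmb6) to 0.014 (Psmb5), with 1 above and 6 below 0. Under scaling to the reads on genes all 14 were above 0 and none was called, so the sign of the beta subunits depended on the scaling. No core gene passed at an unadjusted p under 0.05 or under voom, and in all 14 the groups overlapped. The values of Psma5 are uncertain, since 49.1% of its stretches of 50 exonic bases occur in other genes, chiefly the pseudogenes Gm8394 and Gm12989.

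The regulatory particle was likewise not called in any of its 17 genes. The 6 ATPases, which unfold the substrate, had means of 20.9 to 65.4 FPKM and log2 fold changes from -0.16 (Psmc5, adjusted p = 0.490) to 0.15 (Psmc6, adjusted p = 0.369), with 3 above and 3 below 0. All 11 non-ATPase subunits had log2 fold changes above 0, from 0.0011 (Psmd13) to 0.32 (Psmd14, the deubiquitinase of the lid, adjusted p = 0.180), with a median of 0.15 beside -0.0028 for all tested genes. The sign is a count over genes that share the same 8 livers, and Psmd13 was at -0.011 with array quality weights. Psmd6, a scaffold subunit of the lid, was the one that passed at an unadjusted p under 0.05, where 31.9% of all genes did. It had 42.4, 39.7, 36.3 and 41.6 FPKM in METTL3-HKD and 36.6, 30.9, 29.2 and 35.8 FPKM in METTL3-Flox livers (0.27, standard error 0.101, adjusted p = 0.0977). The groups overlapped at METTL3-HKD liver 3 and METTL3-Flox liver 1. Under scaling to the reads on genes, Psmd6 (0.49, adjusted p = 0.0289) and the lid subunit Psmd12 (0.39, adjusted p = 0.0368) were called, where 13.9% of all genes were called higher, and all 17 genes were above 0. Under voom with the deposited scaling none was called.

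Of the assembly chaperones, none was called by limma or under voom. At an unadjusted p under 0.05, 2 passed, Psmg1 as lower and Psmd10 as higher, where 31.9% of all genes passed. Both were without overlap of the groups, as were 22.6% of all genes. Psmg1, which helps to build the alpha ring, had 11.2, 10.6, 11.4 and 10.9 FPKM in METTL3-HKD and 16.4, 12.3, 12.1 and 15.2 FPKM in METTL3-Flox livers, with no overlap (-0.33, standard error 0.114, adjusted p = 0.0779). Gankyrin (Psmd10), a chaperone of the regulatory particle, had 9.81, 9.69, 9.27 and 9.41 FPKM in METTL3-HKD and 8.29, 7.71, 6.85 and 8.37 FPKM in METTL3-Flox livers, also with no overlap (0.29, standard error 0.0895, adjusted p = 0.0572). Its call appeared with array quality weights (adjusted p = 0.0446), a minimum of 1 FPKM (0.0448), protein-coding genes alone (0.0474) and scaling to the reads on genes (0.0239). The remaining chaperones had log2 fold changes from -0.25 (Psmg4, adjusted p = 0.244) to 0.10 (Psmg2, adjusted p = 0.604), among them Psmd9 at -0.22, Psmg3 at -0.13 and Psmd5 at 0.0099.

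The genes known from other tissues were near the limit of detection. Psma8, an alpha subunit of the testis, had 0.160 to 0.617 FPKM in METTL3-HKD and 0.183 to 0.748 FPKM in METTL3-Flox livers (-0.17, standard error 0.430, adjusted p = 0.817). Psmb11, the beta subunit of the thymic cortex, was at 0 in 6 of 8 livers and rested on 1 read in each of the other 2, METTL3-HKD liver 2 and METTL3-Flox liver 1, and was not tested. Psmc3ip had 0.191 to 0.326 and 0.103 to 0.271 FPKM (0.38, standard error 0.275, adjusted p = 0.370), and 21.2% of its exonic bases are shared with Mlx.

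The constitutive genes varied together from liver to liver. Across the 31 constitutive core and regulatory subunits, METTL3-Flox liver 1 was the highest of its group for 22 genes and liver 4 for the other 9, and liver 2 was the lowest for 25 and liver 3 for the other 6. Among METTL3-HKD livers, liver 3 was the lowest for 26 of the 31 genes. The median coefficient of variation was 14.2% in METTL3-Flox and 5.95% in METTL3-HKD livers, and it was the larger in METTL3-Flox for 30 of the 31 genes (96.8%), where it was so for 53.2% of 2135 tested genes at the same range of mean FPKM. With values scaled to the reads on genes the medians were 14.2% and 11.2%, with 24 of 31 genes (77.4%) more variable in METTL3-Flox beside 50.2% of the 2135. The genes share 4 livers a group, so that these counts describe those livers and were not tested. In METTL3-Flox livers the immunoproteasome genes followed another order, with liver 3 the highest for all 3 and for 0 of the 31 constitutive genes. The order in METTL3-HKD livers was more alike. There liver 2 was the highest for all 3 immunoproteasome genes, and livers 1 and 2 were each the highest for 11 of the 31. METTL3-HKD liver 3 was the lowest for 2 of the 3 immunoproteasome genes.

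**Figure D4:**
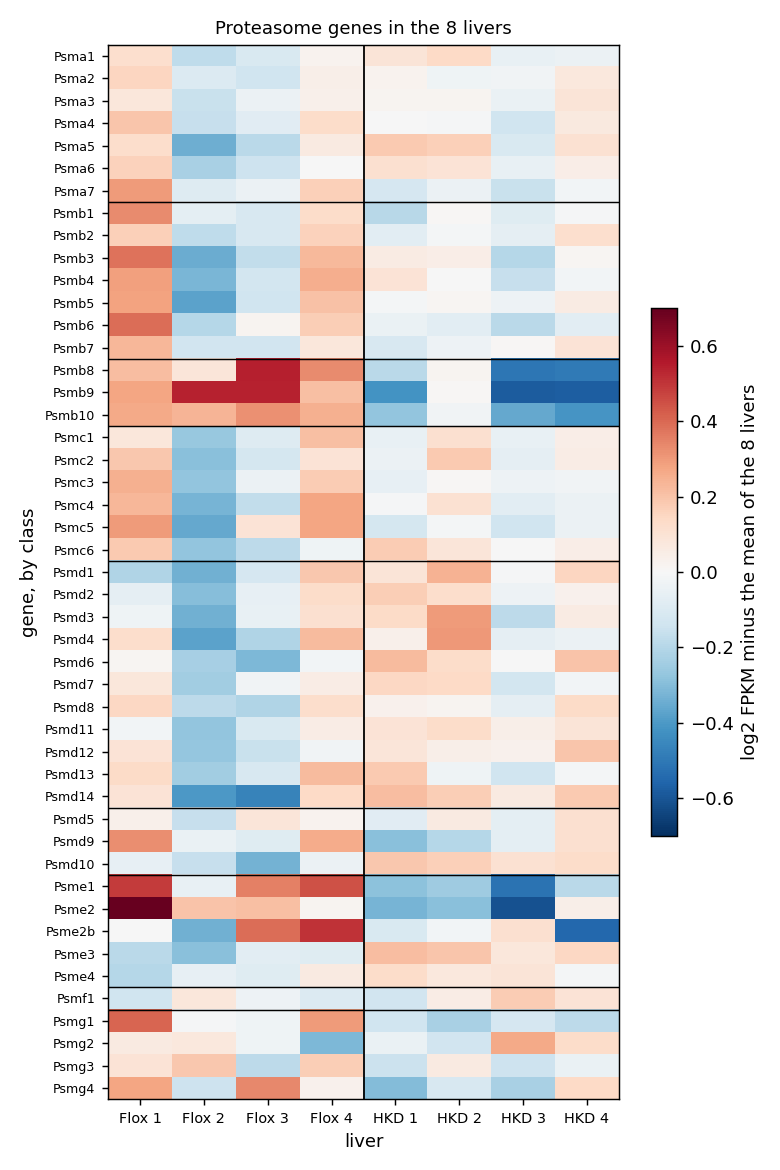
Log2 FPKM of each proteasome gene (rows, by role, black lines between roles) in each of the 8 livers (columns), as the difference from the mean of the 8 livers; colours are limited to 0.7 in either direction. The constitutive rows are mostly above the mean in METTL3-Flox livers 1 and 4 and below it in livers 2 and 3, whereas the rows of Psmb8, Psmb9 and Psmb10 are above the mean in all METTL3-Flox livers.

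Genes around the proteasome were counted from lists of 16 tested associated factors, 13 genes of the NRF1 pathway and 6 ubiquitin and E1 genes. Of the associated factors, 5 were called higher and 0 lower, where 9.05% of all genes were called higher and 6.63% lower. Under scaling to the reads on genes the counts were 7 and 0, where 13.9% of all genes were called higher and 2.24% lower. The shares were not tested against those of all genes. Among them were the stress-inducible binding protein Zfand2a (1.40, adjusted p = 0.0129), Zfand5 (0.45, adjusted p = 0.0209), Akirin2, which brings proteasomes into the nucleus (0.47, adjusted p = 0.0409), and the deubiquitinase Usp14 (0.34, adjusted p = 0.0437). Zfand2a stayed called under all 18 alternatives, and the call was lost under 5 for Zfand5, 8 for Akirin2 and 9 for Usp14. Zfand2a had 15.8, 19.9, 8.17 and 10.01 FPKM in METTL3-HKD and 5.93, 4.56, 3.98 and 4.76 FPKM in METTL3-Flox livers, with no overlap. The ubiquitin receptor Adrm1 (0.38, adjusted p = 0.0853) and the core maturation factor Pomp (-0.045, adjusted p = 0.767) were not called.

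Nfe2l1, the transcription factor of the constitutive subunits, had 25.7, 25.6, 26.1 and 26.5 FPKM in METTL3-HKD and 24.0, 32.9, 30.4 and 26.9 FPKM in METTL3-Flox livers (-0.13, standard error 0.105, adjusted p = 0.444). Ddi2, the protease that activates it, was not called either (-0.18, adjusted p = 0.147). Both values turned positive under scaling to the reads on genes. In the NRF1 list 3 of 13 genes were called higher and 2 lower, beside 9.05% and 6.63% of all genes. The higher ones were Maff (4.06, adjusted p = 0.00190) and Mafk (0.84, adjusted p = 0.0386), small Maf partners, and Nfe2l2 (0.51, adjusted p = 0.0228), the oxidative stress factor NRF2, whose protein is controlled by Keap1. Keap1 itself (-0.35, adjusted p = 0.0384) and Sel1l, of degradation from the endoplasmic reticulum (-0.48, adjusted p = 0.0106), were called lower. Maff stayed called under all 18 alternatives, and Sel1l under all but scaling to the reads on genes, whereas the call was lost under 10 of them for Keap1, 8 for Mafk and 5 for Nfe2l2, most of these with a liver left out. Of the ubiquitin and E1 genes 1 of 6 was called higher, beside 9.05% of all genes. This was Uba6, a second E1 enzyme (0.52, adjusted p = 0.0350). Its call was lost under 8 of the 18 alternatives, among them the replicate block, no minimum and 6 of the 8 omissions of a liver.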

How the data were processed

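RNA sequencing of 4 METTL3-HKD and 4 METTL3-Flox livers was analysed, grouped by the sample labels. The authors deposited FPKM for 54532 genes with gene lengths; the submitters' processing notes name GRCm38 and mm10, and the aligner, counter, annotation and strand setting are not given in the sources used here. FPKM times gene length gave whole reads (tolerance 0.01) for 100% of non-zero values, with 15861245 to 18434488 reads on genes per library, and showed that libraries had been scaled before deposition. Counting error from such reads is small for the constitutive subunits. Depth limits Psma8, Psmb11 and Psmc3ip most, while Psmg3 rested on 91 to 131 and Psmg4 on 112 to 157 reads per liver.

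The 16645 genes at a mean of 0.1 FPKM or more were compared as log2(FPKM + 0.1) with limma 3.58.1 (eBayes with trend, R 4.3.3) and Benjamini-Hochberg adjustment over all of them. Exact permutation tests over livers were two-sided (scipy 1.17.1, Python 3.11.15). The labels name separate mice but no surgery or library batch, so p-values measure the spread between these livers. The method was also run on simulated data, in which genes were drawn independently and with the same spread setting. Those data held no spread shared by the genes of a liver, so that the run does not bear on such a spread. Exon overlaps and shared stretches of 50 bases were taken from GENCODE M21, in which 50 of 50 genes were found, 48 with the listed coordinates. Promoters are from RefSeq (GRCm38.p6).

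All proteasome genes were described, with full statistics for those called, the immunoproteasome subunits and their counterparts, the activators and Psmc3ip, and of other lists for genes set down by name and up to 4 called genes with the smallest p; Psmd6, Psmd10, Psmd12, Psmg1 and Mafk were added after their values were seen. Members and lists were chosen with earlier results of these data known. Some single genes of the lists are not reported here.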

Additional observations from a re-analysis of the deposited data

How the results depend on the processing

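The counts and medians of the proteasome genes and the log2 fold changes of 60 genes, among them every gene given with a log2 fold change above, were recomputed under 18 alternatives that change 1 choice at a time. The ratios within livers, the sums of markers and the added reads of Psme2 and Psme2b were not. The number of proteasome genes called lower was 4, between 2 and 4 with a liver left out (2 without METTL3-Flox liver 3 or 4, where Psmb8 and Psme1 were lost), 5 with a minimum of 1 FPKM, with protein-coding genes alone or under voom (Psme2 gained), 3 without the mean-variance trend or with the replicate block (Psmb8 lost), and 0 under scaling to the reads on genes. The number called higher was 1, between 0 and 1 with a liver left out (1 only without METTL3-HKD liver 3), 2 with array quality weights, a minimum of 1 FPKM or protein-coding genes alone, 4 under scaling to the reads on genes, and 0 without the mean-variance trend or with the replicate block. Under scaling to the reads on genes, 13.9% of all genes were called higher and 2.24% lower. Livers with the same replicate number correlated at -0.084 to 0.071 in their deviations from the group means, not each best with its own number, so the numbers were not taken as pairs, and the replicate block lost Psmb8 and Psme3. Under scaling to the reads on genes the median log2 fold change was -0.37 for the immunoproteasome and 0.23 for all tested proteasome genes, and values near 0 turned positive, namely Ddi2 (0.037), Mettl3 (0.047), Nfe2l1 (0.089), Pomp (0.17), Psma7 (0.049), Psmb6 (0.025), Psmb7 (0.19), Psmc5 (0.059) and Psmg3 (0.075). This scaling differs from the deposited values by construction, by 0.20 in the median of all genes. Array quality weights turned Psmb7 to 0.030 and Psmd13 to -0.011. With a liver left out, 7 log2 fold changes near 0 changed sign, and ranged from -0.089 to 0.0097 for Pomp, -0.44 to 0.12 for Psma8, -0.11 to 0.11 for Psmb5, -0.070 to 0.051 for Psmb7, -0.079 to 0.075 for Psmd13, -0.040 to 0.039 for Psmd5 and -0.084 to 0.42 for Laptm5. No other of the 60 genes reversed under any of the 18. Depth limits the tissue-restricted genes.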

Other observations

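Besides the 50 genes described, 4 rows with a Psm symbol of the same pattern are not protein coding. The pseudogenes Psmb5-ps and Psmb6-ps were listed at 0 FPKM in all 8 livers, and Psmb7-ps2 and Psmb6-ps2 had means of 0.00947 and 0.0568 FPKM. Of other rows that share sequence with a subunit, Gm13835, which holds 15.4% of the stretches of 50 exonic bases of Psma3, was listed at a mean of 78.0 FPKM. In 98 groups of 4 livers, 2 for each tested proteasome gene, no liver stood beyond the critical gap for an outlying value, where chance gives about 4.9.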
